A study of Mus musculus with 4 samples.

Results

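The replication-dependent histone genes encode the linker histone H1 and the core histones H2A, H2B, H3 and H4. They were taken here as every gene record of the mouse annotation (GENCODE vM1, build mm9) whose symbol starts with Hist1, Hist2, Hist3 or Hist4, which gave 70 of 37310 genes. Of these records, 67 are protein-coding and 3 are pseudogenes. There were 6 linker H1, 20 H2A, 19 H2B, 12 H3 and 13 H4 genes, of which 53 lie in the cluster on chromosome 13, 10 in the cluster on chromosome 3 and 7 elsewhere. The data are the YAP ChIP-Seq peak lists of undifferentiated E14Tg2a cells, a mouse embryonic stem cell (ESC) line, made from 2 replicates of chromatin precipitated with a polyclonal antibody against YAP, and the labels name no treatment or modified gene. Per the study's methods, the replicates came from separate experiments. The 2 input replicates of the series carry no peak list used here. Replicate 1 had 22696949 unique tags (mapped reads) and 447 peaks, and replicate 2 had 14965024 unique tags and 154 peaks.

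In dividing cells these genes are transcribed mainly in S phase, when new DNA has to be packed into nucleosomes. Most have no intron, and their mRNAs end in a short stem-loop in place of a poly(A) tail. Many H2A and H2B genes sit head to head and share the stretch of DNA between them. YAP is a transcriptional coactivator that has no DNA-binding domain of its own and reaches chromatin through partners such as the TEAD factors.

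The stem-loop is a sequence feature that the rule for the members did not use. The pattern searched was widened to the H4 stem after a first search in these genes, so the counts, those of H4 above all, describe the members and are no independent check of them. In the 200 bp after the stop codon, a 16-base stem-loop was found in 58 of the 67 members with an annotated stop codon, and in 60 of all 21930 protein-coding genes (0.27%). Its forms are shown because they set the H4 genes apart from the other classes, which share their 2 main forms. The loop is in capitals:
H1, H2A, H2B and H3 genes, 36 members: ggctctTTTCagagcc
H1, H2A, H2B and H3 genes, 9 members: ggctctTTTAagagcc
H4 genes, 8 members: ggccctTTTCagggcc
The H4 genes had stems of their own, with 2 further members in each of the forms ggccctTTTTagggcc and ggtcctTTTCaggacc, and 1 H2A gene had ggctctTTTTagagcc. The stem-loop was found in 6 of 6 linker H1, 17 of 19 H2A, 13 of 18 H2B, 10 of 11 H3 and 12 of 13 H4 genes, with its first base at a median of 32 bp after the stop codon (range 22 to 59). Only the first listed stop codon of a record was used. From start to stop codon, Hist1h2bq spanned 2072 bp and Hist2h2bb 8133 bp, against 381 bp in Hist1h2bn. Hist1h2bp and Hist1h2br also had such long spans. A stem-loop nearer to the start codon would have been missed in these H2B records, and none was found in them.

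Replicate 1 had a YAP peak at most members. A member was taken to have a peak when the summit, the position of the most tags in the peak, lay within 5 kb of its transcription start site (TSS), and 52 of 70 members (74.3%) did so. Over all annotated genes the share was 0.654%, and over protein-coding genes it was 0.572%. The TSS itself lay inside a peak for 46 members (65.7%) against 0.426% of all genes, and the whole gene record did so for 35. With each peak given only to the nearest of all annotated genes, 27 members had one (0.397% of all genes). With a score of at least 100, 19 members had a peak (0.308% of all genes). In replicate 2 only 3 members had a peak, against 0.217% of all and 0.156% of protein-coding genes. No test was run on these counts, since each list comes from 1 library and neighbouring members share peaks.

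**Figure D1:**
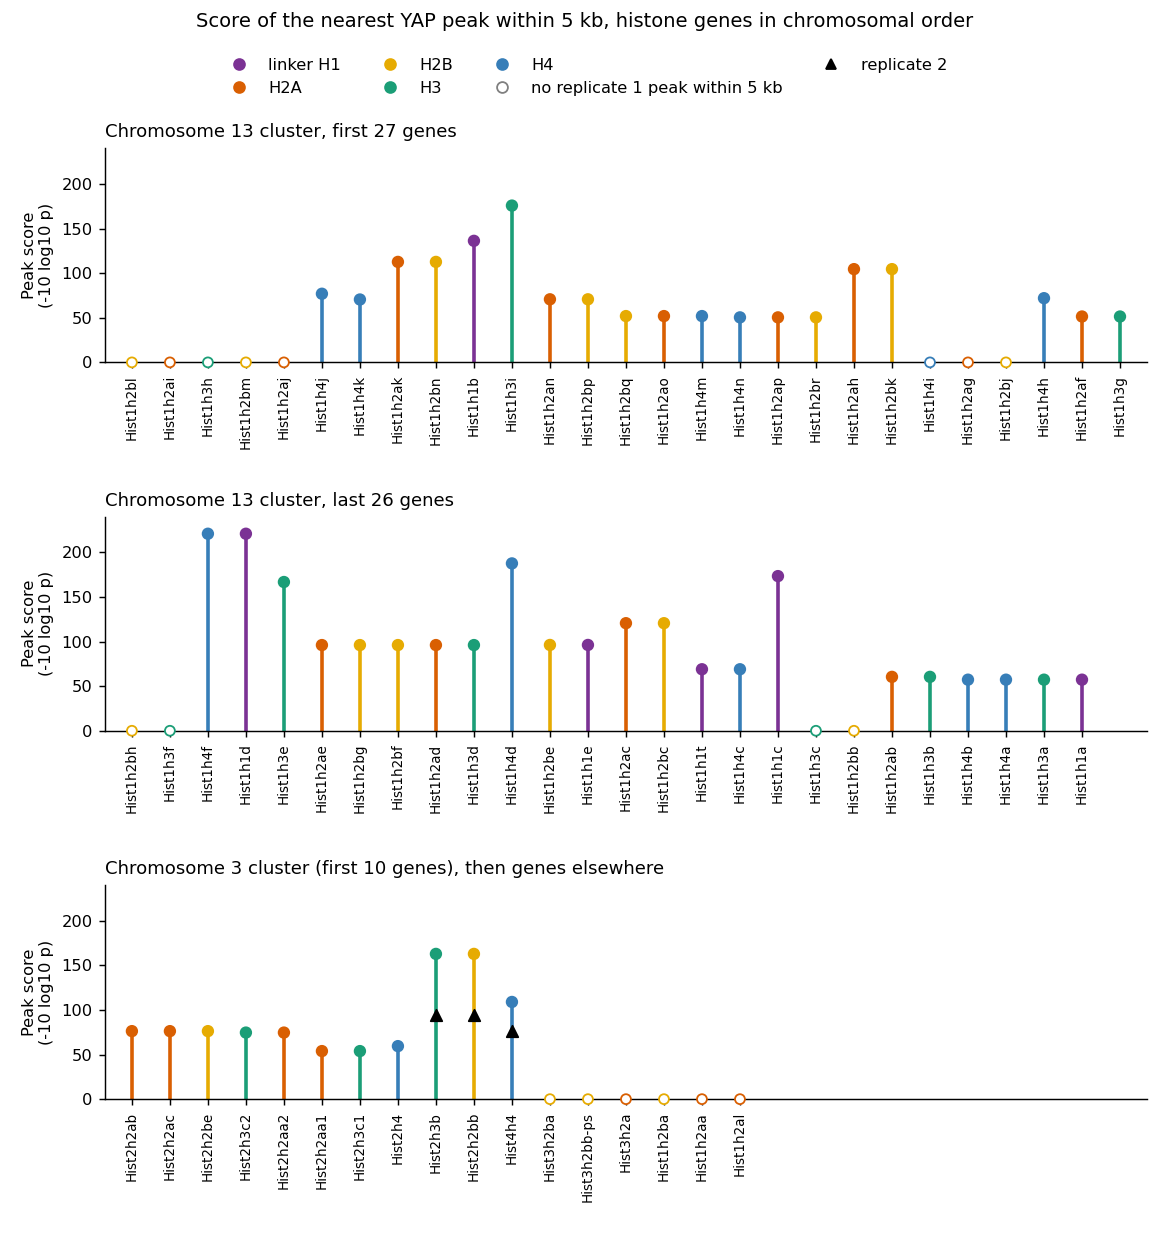
Each point is 1 of the 70 histone genes in chromosomal order, and its height is the score (10 times the negative log10 of p, as the authors' list gives it) of the nearest YAP peak with a summit within 5 kb, so genes that share a peak have the same height. Open circles on the axis are the 18 genes with no replicate 1 peak, and black triangles are the 3 genes with a replicate 2 peak.

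The 52 members shared 28 peaks of replicate 1, since 21 of these peaks had 2 or more members within 5 kb, up to 5. The 28 peaks covered 74822 bp and held 6002 tags, which is 0.02644% of the unique tags (95% Wilson interval 0.02578 to 0.02712). The interval takes every tag as an independent count and holds no error between replicates. Since a read could map to several near copies, the tags are not all independent, and the interval does not give the full counting error. They were broad, with a median length of 2544 bp, against 1241 bp for the other 383 peaks of replicate 1 on assembled chromosomes. Their median of 190.5 tags (range 76 to 395) was also above the 44 tags of the other peaks, and their tag density was 74.95 tags per kb against 37.3. Their median fold enrichment over the local background of the library was lower, at 5.17 against 9.33. The median score was 86.46 at the histone genes and 66.69 at the other peaks.

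The summits gathered around the first codons of the genes. Measured to the nearest annotated start codon of a member, 27 of the 28 summits lay within 250 bp, with a median of 51.5 bp inside the gene. Of the 28, 22 lay past a start codon and before the stop codon of that gene, 5 lay before the start codon and 1 lay after the coding sequence. This last summit was that of the peak at Hist2h3c2, a pseudogene record with no annotated start codon. Relative to the TSS, the median absolute distance over the 52 members was 177.5 bp, and 35 members had a summit within 500 bp.

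**Figure D2:**
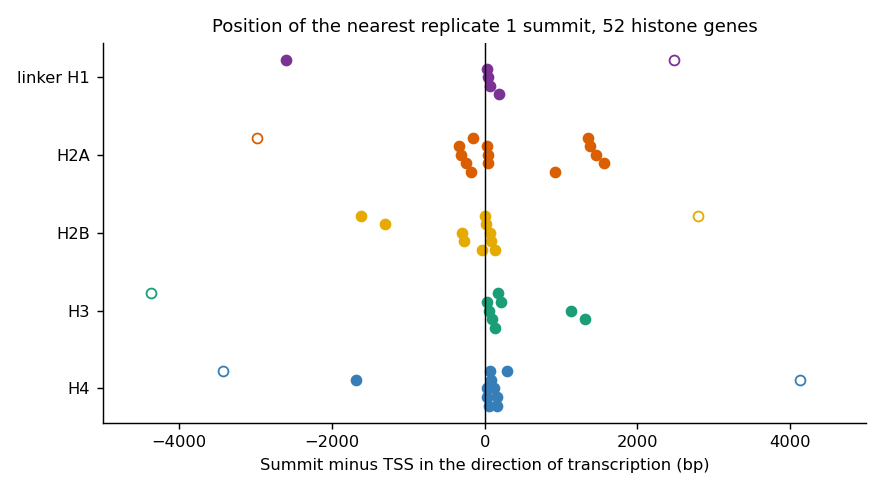
Each point is 1 of the 52 histone genes with a replicate 1 peak, placed by the distance in bp from its TSS to the nearest summit (positive values lie downstream of the TSS) and grouped by histone class, with a small vertical offset that carries no value. Filled points are the 46 genes whose TSS lies inside a peak, and open points are the 6 whose TSS lies outside every peak.

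Upstream sequences of members of each class with a high-scoring peak are shown to compare the promoters of the classes, and they are not the highest scores in order. Each holds the 120 bases before the TSS (mm9, in the direction of the gene), with motif matches in capitals. Hist1h1d is at chr13:23646781-23646900 and Hist1h1c at chr13:23830556-23830675, both on the plus strand. Hist1h2ac is at chr13:23775818-23775937 on the minus strand. Its divergent partner Hist1h2bc is at chr13:23775948-23776067 and Hist2h2bb at chr3:96073524-96073643, both on the plus strand. Hist1h3i is at chr13:21875267-21875386 on the minus strand, and Hist1h4d is at chr13:23673347-23673466 on the plus strand. Hist1h4i, at chr13:22133222-22133341 on the minus strand, is added as the H4 gene without a peak:
Hist1h1d: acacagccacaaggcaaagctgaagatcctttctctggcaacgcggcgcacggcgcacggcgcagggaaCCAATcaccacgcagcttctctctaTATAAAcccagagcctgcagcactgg
Hist1h1c: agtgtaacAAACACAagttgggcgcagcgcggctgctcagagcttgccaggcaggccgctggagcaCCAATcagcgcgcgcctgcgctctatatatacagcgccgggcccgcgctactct
Hist1h2ac: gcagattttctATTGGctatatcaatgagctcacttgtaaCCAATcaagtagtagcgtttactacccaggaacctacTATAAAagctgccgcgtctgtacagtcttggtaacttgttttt
Hist1h2bc: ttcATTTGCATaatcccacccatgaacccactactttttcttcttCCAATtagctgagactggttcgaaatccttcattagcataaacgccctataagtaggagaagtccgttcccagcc
Hist2h2bb: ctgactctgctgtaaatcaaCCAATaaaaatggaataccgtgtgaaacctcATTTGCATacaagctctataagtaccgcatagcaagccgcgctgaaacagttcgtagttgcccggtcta
Hist1h3i: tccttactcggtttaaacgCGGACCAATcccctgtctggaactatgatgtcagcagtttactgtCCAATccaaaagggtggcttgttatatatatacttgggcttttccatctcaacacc
Hist1h4d: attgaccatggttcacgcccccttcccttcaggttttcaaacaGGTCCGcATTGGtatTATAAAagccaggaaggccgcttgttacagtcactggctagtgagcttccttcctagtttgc
Hist1h4i: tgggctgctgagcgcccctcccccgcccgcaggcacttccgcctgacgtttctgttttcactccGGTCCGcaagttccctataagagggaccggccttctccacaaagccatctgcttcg
Every printed promoter but that of Hist1h4i held CCAAT, the box bound by NF-Y, on either strand. In Hist1h3i the first CCAAT overlapped a match to GGTCCG on the other strand.

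Over 300-base windows (250 bases before the TSS and 50 from it, both strands), CCAAT was found in 59 of 70 members (84.3%) and in 37.9% of all 22380 protein-coding promoters. It was in all 6 H1, 19 of 20 H2A, all 19 H2B and 11 of 12 H3 promoters, but in 4 of 13 H4 promoters. TATAAA, the TATA box, was found in 38 members (54.3%) against 13.4% of all promoters. The octamer ATTTGCAT, bound by OCT factors such as OCT1, was in 9 H2B (47.4%) and 7 H2A promoters (35%) and in none of the other classes, against 1.7% of all promoters. The windows of divergent H2A and H2B partners overlap, so 1 match can count for both genes. Most of the H2A genes with the octamer have a divergent H2B partner that holds it too, so these counts are not independent. AAACACA, an element known from H1 promoters, was in 5 of 6 H1 promoters (83.3%) against 6.4% of all promoters, and also in 1 H2A, 3 H2B and 1 H3 promoters. GGTCCG, the core of the H4 element bound by HINFP, was in 12 of 13 H4 promoters (92.3%) against 9.8% of all promoters, and also in 1 H2B and 2 H3 promoters. None of these strings contains another.

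CATTCC, the core motif of the TEAD factors, was not common in these promoters. It was found in 4 of 70 members (5.7%), those of Hist1h3c, Hist1h3d, Hist1h4c and Hist1h4h, against 13.4% of all promoters. Around the summits it was in 0 of the 28 windows of 100 bp on each side, against 41 of 383 (10.7%) at the other replicate 1 peaks. A match is only a short run of letters that also occurs by chance, at a rate not worked out here. Neither its presence at the other peaks nor its absence at the histone peaks says whether the factor was bound.

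**Figure D3:**
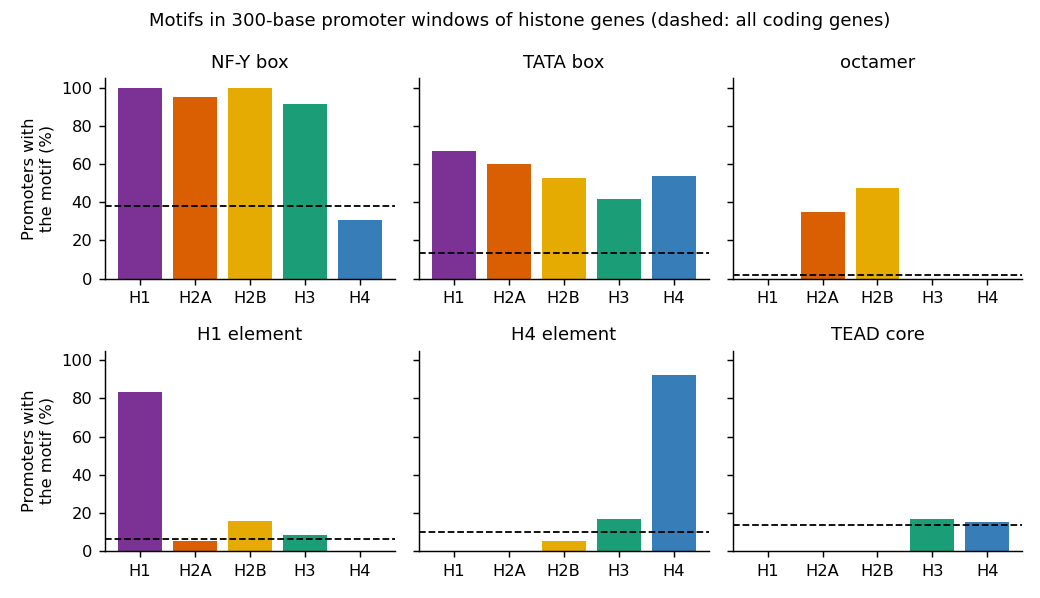
Bars give the percentage of promoters (250 bases before to 50 bases after the TSS) of each histone class that hold each motif on either strand, and the dashed line gives the percentage over 22380 protein-coding genes. The NF-Y box is in all H1 and H2B promoters, the octamer only in H2A and H2B, the H1 element in 83.3% of H1 promoters and the H4 element in 92.3% of H4 promoters, while the TEAD core is found only in H3 and H4.

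The promoters of members with and without a replicate 1 peak held these motifs at mixed shares. CCAAT was in 44 of 52 members with a peak (84.6%) and 15 of 18 without (83.3%), the octamer in 10 (19.2%) and 6 (33.3%), and TATAAA in 32 (61.5%) and 6 (33.3%). GGTCCG was in 12 members with a peak (23.1%) and 3 without (16.7%), and CATTCC in 3 (5.8%) and 1 (5.6%). The stem-loop was in 43 of 51 (84.31%) and 15 of 16 (93.75%). Hist1h2bp, Hist1h2bq, Hist1h2br and Hist2h2bb, where the stop codon used lay far from the start codon, are all among the members with a peak and without a stem-loop.

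**Figure D4:**
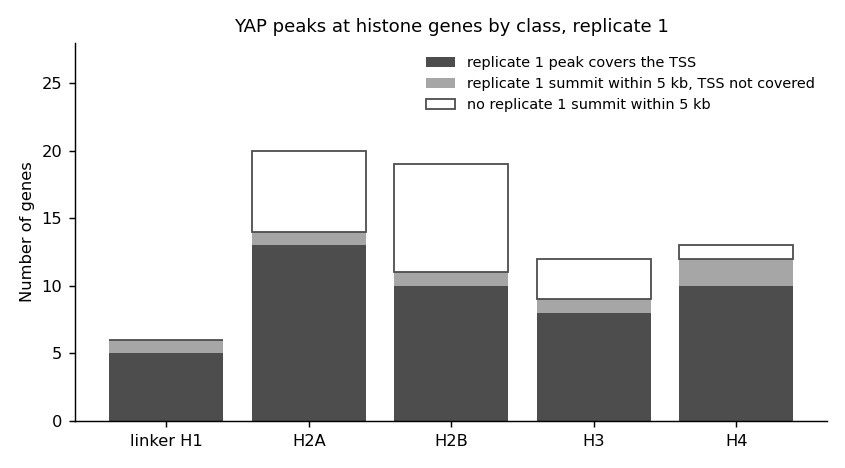
Bars count the genes of each histone class by their replicate 1 peak, with dark grey for a TSS inside a peak, light grey for a summit within 5 kb of a TSS outside every peak, and white for neither. Linker H1 (6 of 6 genes) and H4 (12 of 13) had the fewest genes without a peak, and H2B had the most, 8 of 19.

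All 6 linker H1 genes had a replicate 1 peak, and 4 of them were the nearest member to its summit. H1 binds the DNA that enters and leaves the nucleosome. The highest score of all members was at Hist1h1d (H1.3), where the peak chr13:23646061-23648705 had 380 tags, a score of 220.78 and its summit 44 bp after the TSS. Hist1h1c (H1.2) had 286 tags, a score of 173.3 and its summit at 36 bp. Hist1h1b (H1.5) had 166 tags, a score of 136.19 and its summit at 193 bp. Hist1h1e (H1.4) had 162 tags, a score of 96.15 and its summit at 68 bp. The other two were reached by peaks whose summits lay nearer to other genes. Hist1h1a (H1.1) lay inside a peak of 5351 bp with a score of 57.25 that peaked at Hist1h4a, 2596 bp before its TSS. Hist1h1t, the testis linker histone, was not covered, and the summit 2478 bp after its TSS was 165 bp from that of Hist1h4c. The 4 peaks nearest to H1 genes had a median score of 154.75, against 71.19 for the 10 nearest to H4 genes, 67.5 for the 6 nearest to H3, 108.54 for the 6 nearest to H2B and 73.44 for the 2 nearest to H2A. The scores of the H1 group (96.15 to 220.78) overlapped those of the H2B (51.88 to 162.76), H3 (51.4 to 175.69) and H4 groups (50.43 to 187.53), and both H2A peaks (70.68 and 76.21) lay below them. These groups go by the nearest TSS of a record. The peak inside the Hist1h2be coding sequence (96.96) thus counts for H4, through Hist1h4d. The peak at the start codon of Hist2h2aa1 (53.85) counts for H3, through Hist2h3c1.

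H4 genes had a peak in 12 of 13, and 9 were the nearest member to a summit. H4 is the core histone whose many genes encode nearly the same protein. Hist1h4d had 163 tags and a score of 187.53 at chr13:23672988-23674860, with the summit 34 bp after its TSS. Hist1h4k had 123 tags and a score of 70.46 at its own TSS (51 bp), and the higher peak within its reach, with a score of 112.59, was that of Hist1h2bn. Hist1h4f was reached only by the Hist1h1d peak, whose summit lay 3428 bp before its TSS. Only Hist1h4i had no peak, and the nearest summit was 5562 bp away, just outside the limit. Its promoter is printed above and holds the H4 element.

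H3 genes had a peak in 9 of 12. Hist1h3i had 182 tags and a score of 175.69, with its summit 101 bp after the TSS. At Hist1h3e, 192 tags gave a score of 166.68 and the highest fold enrichment of the histone peaks, 8.8. Only 40.4% of the 25-base words in this peak occur once in the genome. Hist2h3b, with a score of 162.76, lay inside a peak whose summit was 1136 bp downstream, at its neighbour Hist2h2bb. Hist1h3d was outside every peak, and the nearest summit lay 4367 bp before its TSS. Hist1h3c, Hist1h3f and Hist1h3h had no peak.

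Over all 70 members, H2A and H2B, which pair into dimers in the nucleosome, had the lower shares, 14 of 20 and 11 of 19. The 6 members outside the clusters without a peak are all H2A or H2B genes, so class and place are mixed in these shares. Within the chromosome 13 cluster, 10 of 13 H2A and 9 of 14 H2B genes had a peak. There, 6 of 9 H3, 10 of 11 H4 and all 6 linker H1 genes had one. Only 2 of the 14 H2A genes were the nearest member to a summit, against 6 of the 11 H2B genes. These counts use the TSS of each record. They include neither Hist2h2aa1 nor Hist1h2be, although a summit lay 1 bp before the start codon of Hist2h2aa1 and another 56 bp after that of Hist1h2be. Hist2h2bb had 224 tags, a score of 162.76 and its summit 69 bp after the TSS. Hist1h2bc and its divergent partner Hist1h2ac shared a peak of 212 tags and a score of 120.54, with the summit 88 bp inside Hist1h2bc and 339 bp upstream of the TSS of Hist1h2ac. Hist1h2ak shared the 189 tags and score of 112.59 of Hist1h2bn. Hist1h2an and Hist1h2bp shared a peak of 158 tags and a score of 70.68, and the Hist1h3i peak was also within 5 kb of both.

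There were 15 divergent pairs with TSSs within 1 kb, of which 14 joined an H2A with an H2B gene, and 9 had a replicate 1 peak. In 8 of the 9 the peak covered both TSSs. The summit lay between the TSSs in 2 pairs, inside one of the genes in 5 and more than 500 bp away in 2. By the peak nearest to each pair, the highest scores were 120.54 at Hist1h2ac/Hist1h2bc, 112.59 at Hist1h2ak/Hist1h2bn and 104.49 at Hist1h2ah/Hist1h2bk. A further pair, Hist1h2an/Hist1h2bp, had the higher Hist1h3i peak (175.69) within 5 kb, although its nearest peak had a score of 70.68. In the pair Hist1h2ah/Hist1h2bk, whose TSSs are 178 bp apart, 228 tags had their summit 31 bp before the TSS of Hist1h2bk, between the genes. The 1 pair of an H2B with an H3 gene, Hist1h2bh/Hist1h3f, had no peak. Of the members in a pair, 18 of 30 had a peak, and of the others 34 of 40. The paired members are H2A and H2B genes but for 1 H3 gene, while most of the others belong to other classes. Among the H2A and H2B members in no pair, 7 of 10 had a peak.

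Hist1h2be is a case where the gene record moves the result. Its record has an upstream first exon, and its TSS at position 23712993 lies 35168 bp from its start codon. The peak within 5 kb of that TSS was the one at Hist1h1e, 1310 bp away. A second peak, chr13:23676434-23678566 with 142 tags and a score of 96.96, had its summit 56 bp inside the Hist1h2be coding sequence and, of the members, had only the TSS of Hist1h4d within 5 kb.

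The 18 members without a replicate 1 peak lay in runs. At the start of the chromosome 13 cluster, Hist1h2bl, Hist1h2ai, Hist1h3h, Hist1h2bm and Hist1h2aj were 13198 to 19186 bp from the nearest summit. Further on, Hist1h4i, Hist1h2ag and Hist1h2bj were 5562 to 7424 bp away. Hist1h2bh and Hist1h3f were 7884 to 8577 bp away. Hist1h3c and Hist1h2bb were 5712 to 6759 bp away. Hist1h2ba and Hist1h2aa, a pair known from the testis, lie beyond the interval, 173084 and 173390 bp from a summit. The remaining members without a peak were Hist1h2al, Hist3h2ba, Hist3h2bb-ps and Hist3h2a, all outside the clusters and at least 1772771 bp from a summit. By place, 41 of 53 members in the chromosome 13 cluster, 10 of 10 in the chromosome 3 cluster and 1 of 7 elsewhere had a peak, the last being Hist4h4 on chromosome 6.

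Replicate 2 had 2 peaks near members, with 117 tags in all. One, chr3:96072982-96074288, had 59 tags and a score of 94.58, and its summit was at the same base as that of replicate 1, 69 bp inside Hist2h2bb. The same peak was within reach of Hist2h3b, at 1136 bp. The other, chr6:136752069-136753885 at Hist4h4, had 58 tags and a score of 76.15, with its summit 47 bp after the TSS, 31 bp from that of replicate 1. Per 1000000 unique tags, Hist2h2bb had 9.87 tags in replicate 1 and 3.94 in replicate 2, and Hist4h4 had 5.64 and 3.88. The ratios of replicate 2 to replicate 1 were 0.4 and 0.69, against a median of 0.53 (range 0.13 to 1.52) over the 60 replicate 1 peaks that overlapped a peak of replicate 2. These ratios take all tags of each called peak and are not adjusted for its length. At Hist2h2bb the peak spanned 2462 bp in replicate 1 and 1307 bp in replicate 2, and at Hist4h4 1931 and 1817 bp. The ratios of the 2 genes are therefore not directly comparable.

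The other 26 replicate 1 peaks near members were called in that library only. Scaled to the depth of replicate 2, the 28 peaks, with the 2 called in both lists among them, would hold 50.1 to 260.4 tags. The smallest peak called in replicate 2 had 15, but a call depends on enrichment over the local background and not on tags alone. These numbers therefore do not tell whether depth bears on the missing calls, which was not tested. Of all 22 peaks in the chromosome 13 cluster, 0 overlapped a peak of replicate 2. The nearest replicate 2 summit to any member there was 18435692 bp away. In all, 2 of the 28 histone peaks (7.14%) overlapped a peak of the other replicate, against 58 of 383 (15.14%) of the other replicate 1 peaks and 22 of 317 (6.94%) of those within the same range of scores. The number of tags at uncalled places in replicate 2 was not analysed here.

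Many members are near copies of each other, and the authors let a read map to up to 100 places with a weight for each. The share of 25-mers (the tag size) that occur once in the genome therefore bears on each value. It had a median of 78% over the 28 peaks (range 1.4 to 99.1%), against 69% at the other peaks. Of the repeated 25-mers in a histone peak, a median of 83.7% (range 55.3 to 100%) were found nowhere outside the members and their flanks. In the 500 bp on each side of the TSS, the unique share had a median of 61% in members with a peak and 62.9% in members without.

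**Figure D5:**
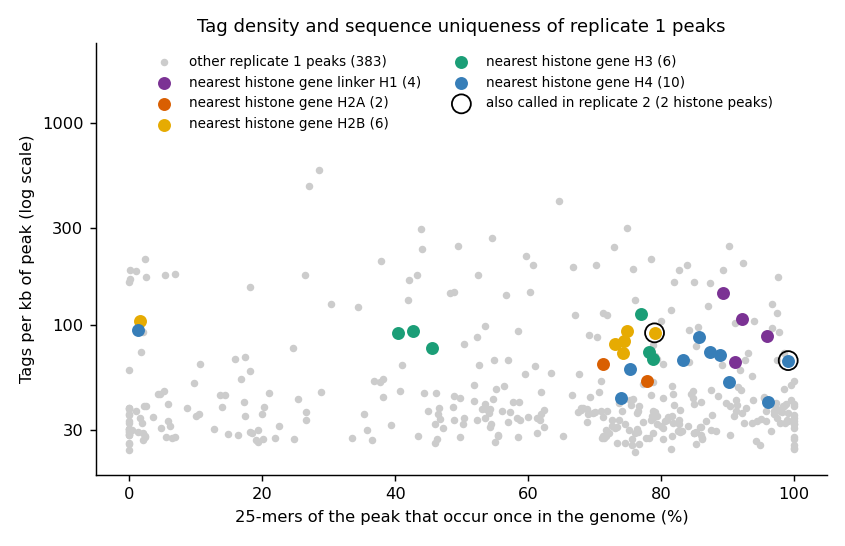
Each point is a replicate 1 peak, placed by the percentage of its 25-mers that occur once in the genome and by its tags per kb on a log scale, with the 28 histone peaks coloured by the class of the nearest gene and the other 383 in grey. A pair of histone peaks lies at the left, at 1.6% and 1.4%, and the 2 ringed peaks, also called in replicate 2, lie at 79% and 99.1%.

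The lowest shares belonged to an inverted duplication in the chromosome 13 cluster. The genes Hist1h2bq, Hist1h2ao and Hist1h4m form one copy, and Hist1h4n, Hist1h2ap and Hist1h2br form the other. Their peaks held 395 tags with a score of 51.88 and 366 tags with a score of 50.43, and had unique shares of 1.6% and 1.4%. The summits lay at Hist1h2bq in the first and at Hist1h4n in the second. These copies can hardly be told apart by 25-base tags, so the 6 genes amount to about 1 measurement. At the Hist2h2aa1 and Hist2h3c1 copy and the Hist2h2aa2 and Hist2h3c2 copy on chromosome 3, the peaks held 284 and 322 tags with unique shares of 45.6% and 42.7%. The peak at Hist1h3e, which had the highest fold enrichment, had a unique share of 40.4%. The 4 peaks nearest to linker H1 genes had 89.3 to 95.9% unique 25-mers, and the peak at Hist4h4 had 99.1%.

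Genes related by function but outside the 70 were set beside the same share of all genes (0.654% in replicate 1). Of 13 replication-independent histone genes, which encode variants that are not made only in S phase, 2 had a replicate 1 peak and 1 a replicate 2 peak. H2afj was reached only by the Hist4h4 peak, whose summit lay at -3947 bp from its TSS in replicate 1, and it was also the gene with the replicate 2 peak. H3f3b, which encodes H3.3, had a summit 3509 bp after its TSS in the peak chr11:115885051-115886562, with 62 tags and a score of 55.48. None of 15 genes for histone transcription and pre-mRNA processing factors (such as Npat, Slbp and Hinfp) had a peak in either replicate, and at the share of all genes a list of this size is too short to read anything from a count of 0. Among the other genes within the 2 cluster intervals, 5 of 119 on chromosome 13 and 1 of 3 on chromosome 3 had a peak, and 0 of the 36 Vmn1r genes, which code for vomeronasal receptors and lie between the histone genes of chromosome 13, did so, a count from which nothing can be read at that share either. Each of those 6 genes was reached by a peak that is also near a histone gene.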

How the data were processed

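YAP ChIP-Seq of undifferentiated E14Tg2a ESCs comprised 2 YAP and 2 input samples, and the peak lists of the 2 YAP replicates were used. The authors mapped reads to mm9 with bowtie, allowing 100 positions per read with weights, and ran MACS on each replicate alone, without a control library, with tags of 25 bases, 300 bp for the band width and a cutoff on p of 1.00e-05. The tag count per peak was deposited without scaling. The deposited score is 10 times the negative log10 of p, and the deposited fold enrichment is the ratio of tags at a peak to those MACS took as local background.

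The members and lists were chosen with earlier results of these data known. Summits were matched to TSSs of GENCODE vM1 records within 5 kb, and sequences were read from NCBIM37, which is mm9. Scores and folds were used only within their list. With 1 library per list, counts were set beside all genes without a test. Named genes were the linker H1 genes, members with a replicate 2 peak, the 3 members of each other class with the highest-scoring replicate 1 peak within 5 kb, members without a replicate 1 peak, the divergent pairs with the 3 highest scores and genes of the comparison lists with a peak. Hist1h2be, Hist1h4a, Hist1h4c, Hist1h4h, Hist1h3d, Hist1h2ah, Hist1h2bk, Hist1h2bn and the duplicated genes were chosen for naming once their values had been seen. The stem-loop pattern was widened to the H4 stem after a first search. Alternatives were other distances, distance to peak edges, a score of at least 100, a fold of at least 5, the nearest gene only, any transcript start and coding records only; 2 were added after seeing the data, the start codon in place of the TSS and leaving out peaks with under 50% unique 25-mers. The scripts ran in Python 3.11.15 with pandas 2.3.3, numpy 2.4.6, numba 0.67.0 and scipy 1.17.1, with figures from matplotlib 3.10.9, and were tested on simulated data.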

Additional observations from a re-analysis of the deposited data

How the results depend on the processing

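Of the 99 alternatives, 78 stayed within 1.5 times the value of the report and 21 moved by more. Among peaks scoring at least 100, those of replicate 1 reached 19 members in place of 52, of which 3 were linker H1, 4 H2A, 5 H2B, 3 H3 and 4 H4 genes, those of replicate 2 reached 0 in place of 3, 4 divergent pairs had one in place of 9, and 11 peaks remained of 28, with a median score of 162.76 in place of 86.46. With a fold enrichment of at least 5, replicate 1 had a peak at 31 members (7 H2A and 6 H2B genes in place of 14 and 11) and 18 peaks. With each peak given to the nearest annotated gene only, 27 members had one, of which 2 were H2A and 6 H2B genes, and the median distance from TSS to summit was 69 bp in place of 177.5 bp. With a limit of 1 kb, 9 H2A genes had a peak and the median distance was 94.5 bp. These alternatives use fewer peaks or a shorter reach by construction. Leaving out 1 replicate gave 3 to 52 members with a peak in either list, the lower value without replicate 1. Of the alternatives chosen after seeing the data, the start codon in place of the TSS gave 51 members and leaving out the 5 peaks with under 50% unique 25-mers gave 41.

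No paired analysis was possible because the counts come from no test and each replicate is 1 peak list. The lists give no tags outside peaks, so a member without a peak has no value of its own, and with 2 replicates that differ in depth and in number of peaks the replicate error of a single member cannot be given. Divergent pairs, near copies and shared peaks make neighbouring members dependent.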
